A study of Mus musculus with 768 samples.

Results

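Cycling cells were described among cells sorted from mammary tumors of the MMTV-PyMT mouse as candidate cancer-associated fibroblasts (CAFs). The cells were selected on transcripts of 8 genes used in S phase, G2 and mitosis, namely *Top2a*, *Birc5*, *Cdk1*, *Ccna2*, *Ccnb2*, *Mki67*, *Spc25* and *Pbk*. A well was kept when it held at least 10000 endogenous reads and at least 1000 detected genes, and its cell was a member when at least 3 of these 8 genes reached an RPKM of 1, a read count scaled to the length of the gene model and to all reads of the well. The rule kept 717 of 768 wells and found 82 cycling cells, which were 37 of 371 cells on plate 1 and 45 of 346 on plate 2.

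All cells belonged to a single group. They came from 14-week-old FVB/N-Tg(MMTVPyVT)634Mul/J mice, in which the mammary tumor virus promoter drives polyoma middle T antigen in mammary epithelium, and they were sorted as negative for EpCAM, CD45, CD31 and NG2 before Smart-seq2 sequencing of 1 cell per well. By the methods of the study, the plates held cells of separate tumors. The plate is therefore the replicate (n = 2), and plate and tumor cannot be told apart. Kept wells had 10281 to 838772 endogenous reads on plate 1 and 11175 to 1190516 on plate 2. Intervals given for shares of cells are exact binomial 95% intervals and cover counting error only.

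A cell that enters the cycle first licenses and copies its DNA in S phase, with the MCM helicase, the PCNA clamp and the polymerases, and then builds the kinetochores, spindle and cytokinesis machinery of G2 and mitosis. Most genes of the second wave are repressed in resting cells and switched on together late in the cycle. In tumor stroma, pericyte-like cells around vessels and matrix-producing fibroblasts are distinct populations, so a proliferation signature can sit on top of quite different cell identities.

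The rule genes are given first as a description, since they chose the cells. *Cdk1*, the kinase that triggers mitosis, reached an RPKM of 1 in 94.6% of the cycling cells of plate 1 and 86.7% of those of plate 2, with medians of 115 and 69.2 RPKM. It was also the least exclusive rule gene, as 24.3% and 21.3% of the other cells passed the same level. *Mki67*, the gene of the Ki-67 proliferation antigen, was far more restricted, with 83.8% and 68.9% of cycling cells against 2.40% and 1.66% of other cells. The median of *Top2a*, which encodes the topoisomerase that untangles replicated chromosomes, was 56.6 RPKM on plate 1 and 16.4 RPKM on plate 2. *Pbk*, a mitotic kinase gene, was the sparsest, at 56.8% and 48.9% of the cycling cells.

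The cycling cells were not uniform in this respect. All 8 rule genes were found in 28 cells, and 51 cells had at least 5 of them. At the threshold of the rule, the 20 cells with 3 rule genes expressed a median of 17.9% of a list of S-phase genes and 20.4% of a list of G2/M genes, and the 51 cells with 2 rule genes, just outside it, expressed 16.7% and 16.3%. Above the threshold the median S share did not follow the number of rule genes, at 69.0% with 4, 52.4% with 5, 21.4% with 6, 28.6% with 7 and 60.7% with 8. Several results are therefore also given for the cells with at least 5 rule genes.

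The cycling cells were then assigned to the programme that they carried outside the cycle. Each programme was represented by 10 marker genes, and a cell carried a programme when at least 5 of its markers reached an RPKM of 1 and more than for any other programme. The vascular markers include the pericyte gene *Rgs5* and the channel subunits *Kcnj8* and *Abcc9*, the matrix markers include the proteoglycan genes *Dcn* and *Lum* and the receptor gene *Pdgfra*, and the developmental markers include *Sox9*, *Sox10* and *Scrg1*. Of the 82 cycling cells, 68 carried the vascular programme, 8 the matrix programme and 5 the developmental programme, and 1 carried none. The vascular share was 91.9% (34 of 37 cells, 78.1 to 98.3%) on plate 1 and 75.6% (34 of 45 cells, 60.5 to 87.1%) on plate 2, a mean of 83.7% ± 11.6 (SD, n = 2), beside 71.3% and 70.8% of the cells that were not cycling. The matrix share was 8.11% (3 cells) on plate 1 and 11.1% (5 cells) on plate 2, beside 23.1% and 22.9% of the other cells.

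Seen from the programmes, 34 of 272 vascular cells were cycling on plate 1 (12.5%, 8.81 to 17.03%) and 34 of 247 on plate 2 (13.8%, 9.72 to 18.7%). Of the matrix cells, 3 of 80 were cycling on plate 1 (3.75%, 0.780 to 10.6%) and 5 of 74 on plate 2 (6.76%, 2.23 to 15.1%). The matrix share was below the vascular share on both plates, but the intervals overlapped on each, and with 2 plates an exact two-sided permutation test cannot give a p under 0.333. When every cell was thinned to 50000 endogenous reads, the shares were 9.96% and 12.99% of vascular cells and 3.85% and 2.78% of matrix cells. With at least 5 rule genes they were 8.09% and 8.10% of vascular cells and 3.75% and 2.70% of matrix cells. Cycling developmental cells were found on plate 2 alone, in 5 of 18 cells (27.8%, 9.69 to 53.5%), while 0 of 11 were cycling on plate 1 (exact interval up to 28.5%, limit of 3 counts 27.3%).

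**Figure D1:**
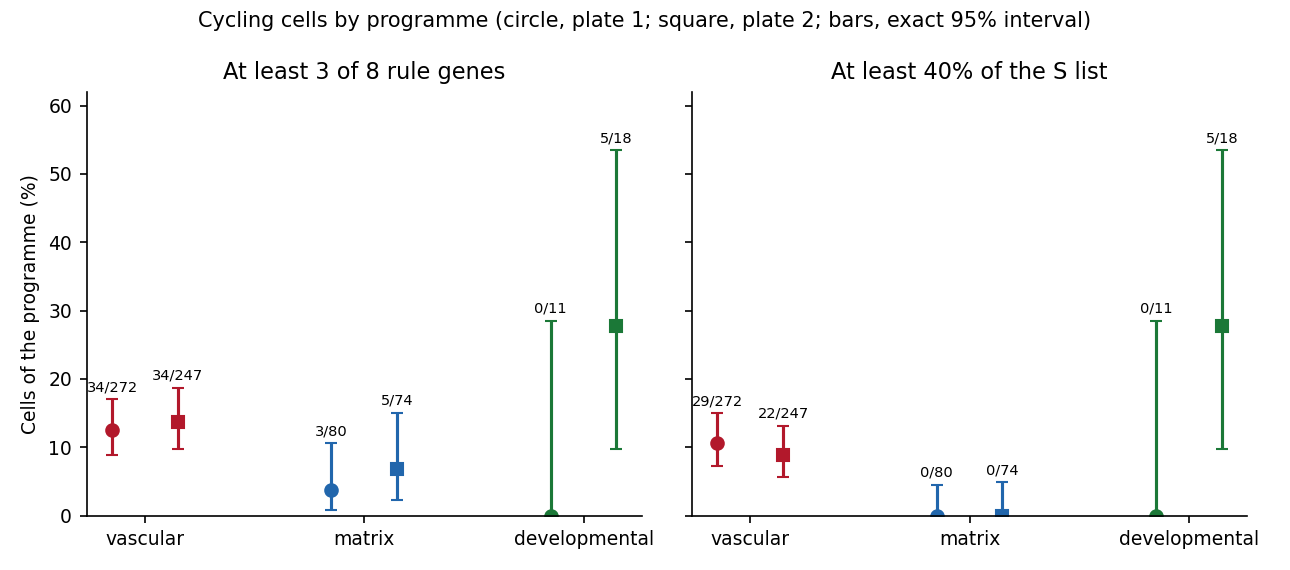
Share of the cells of each programme that were cycling by the rule (left, % of cells) or that had at least 40% of the S list at an RPKM of 1 (right, % of cells), for plate 1 (circles) and plate 2 (squares), with exact 95% binomial intervals and the number of cells above each. The vascular shares lie at 12.5% and 13.8% on the left and no matrix cell is counted on the right, where the limit of 40% was chosen after the values were seen.

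The 68 cycling vascular cells had a median of 10 of 10 vascular markers (7 to 10) and 2 of 10 matrix markers (0 to 6), and 5 of them had at least 5 markers of a second programme. *Rgs5*, a G-protein regulator used as a pericyte marker, had a mean log2(RPKM + 1) of 11.82 in cycling and 11.88 in non-cycling vascular cells, and 2.03 in cycling matrix cells. *Notch3*, the Notch receptor of mural cells, stood at 5.88 ± 0.15 in cycling and 6.01 ± 0.12 in non-cycling vascular cells (SD, n = 2 plates). *Higd1b* stood at 9.90 in cycling and 9.41 in non-cycling vascular cells, and the adhesion gene *Esam* at 7.73 and 6.96. By this mean over cells 5 of the 10 markers were higher in cycling cells (*Des*, *Esam*, *Gucy1a3*, *Higd1b* and *Mcam*), while in the summed counts compared further on *Mcam* alone lay above 0, with *Higd1b* at -0.02 and *Esam* at -0.08 on the log2 scale. These markers assigned the programme to both sets of cells alike, so their high level is not a finding and only the difference between the sets is of interest.

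The sorting markers and genes of other cell types were read in the same cells. *Cspg4*, which encodes the NG2 antigen used to exclude pericytes, had at least 1 read in 92.6% of cycling and 86.3% of non-cycling vascular cells. *Pdgfrb*, the mesenchymal PDGF receptor, was read in all 68 cycling vascular cells and in all 8 cycling matrix cells. Of 10 endothelial genes, 6 had a read in cycling vascular cells, *Pecam1*, *Cdh5*, *Tie1* and *Kdr* were at 0, and the summed level had a median of 285 CPM (counts scaled to library size, range 0 to 1292) against 288 CPM (0 to 2757) in non-cycling vascular cells. Of 10 epithelial genes 8 had a read in cycling vascular cells, with a median of 0 CPM (0 to 2280), of 10 immune genes 4 (0 to 620 CPM, *Ptprc* in 1 cell), and of 8 Schwann cell genes 3 (0 to 213 CPM). The part of these cells in the results was not tested.

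**Figure D2:**
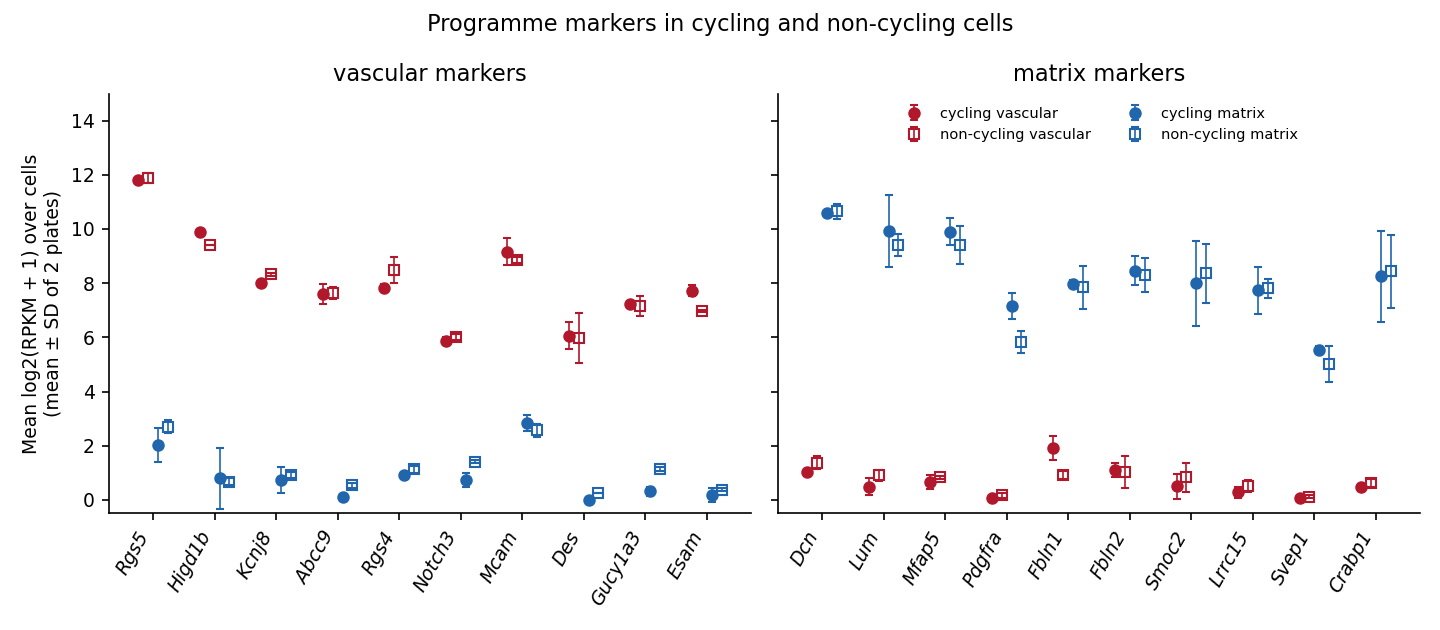
Mean log2(RPKM + 1) of the 10 vascular markers (left) and the 10 matrix markers (right) over the cells of each class, as the mean ± SD of 2 plates. Cycling cells (filled) lie close to the non-cycling cells (open) of the same programme for most markers, with *Rgs5* at 11.82 and 11.88 in vascular cells.

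To ask what else differed between cycling and resting cells of the same programme, counts were summed over the 34 cycling and the 238 or 213 non-cycling vascular cells of each plate and compared with edgeR. Of 11208 genes tested, 196 were higher in cycling cells (1.75% of genes) and 22 were lower (0.196%) at a Benjamini-Hochberg adjusted p of 0.05. With the tumor as a block, since both sums of a plate come from the same animal, 273 genes were higher (2.44%) and 82 lower (0.732%). The counts depended on the method, with 573 higher and 348 lower genes by DESeq2 and 1671 (14.9%) and 47 (0.419%) with the spike-in totals as library size. With at least 5 rule genes there were 192 higher genes, 164 of them among the 196, and 18 lower genes, of which 7 were among the 22. Of the 196 higher genes, 110 were in the cell-cycle lists, among them the 8 rule genes that chose the cells, and all 110 are given as a description.

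None of the 10 vascular markers passed the test in either direction, with 9 of 10 below 0 and a median log2 fold change of -0.35 beside -0.01 over all genes. None of 14 contractile genes (median -0.08), 13 basement membrane genes (0.02), 13 interstitial matrix genes (-0.04), 10 Notch pathway genes (-0.15), 5 PDGF genes (-0.28) or 9 mural ion channel genes (-0.35) passed either. The vascular markers with the largest differences were *Rgs4*, a G-protein regulator, at -0.78 ± 0.20 (standard error, adjusted p = 0.157 in edgeR) and *Kcnj8* at -0.73 ± 0.18 (adjusted p = 0.141 in edgeR), and DESeq2 called both lower (adjusted p = 0.00362 and 0.00267). The gap junction gene *Gja4* was at -0.76 ± 0.15 (adjusted p = 0.0892 in edgeR). *Cnn1*, the smooth-muscle calponin, was at 1.51 ± 0.53 (adjusted p = 0.27 in edgeR), with reads in 4 and 5 of the 34 cycling cells. When the spike-in totals replaced the library sizes, the median of all genes moved to 0.66 and that of the vascular markers to 0.32, so the sign of the vascular median depended on the scaling, and it lay below that of all genes under both. With that scaling 5 contractile, 3 basement membrane, 4 interstitial matrix and 1 vascular, 1 Notch, 1 PDGF and 1 channel gene were called higher, beside 14.9% of all genes, and none of these lists had a gene called lower.

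**Figure D3:**
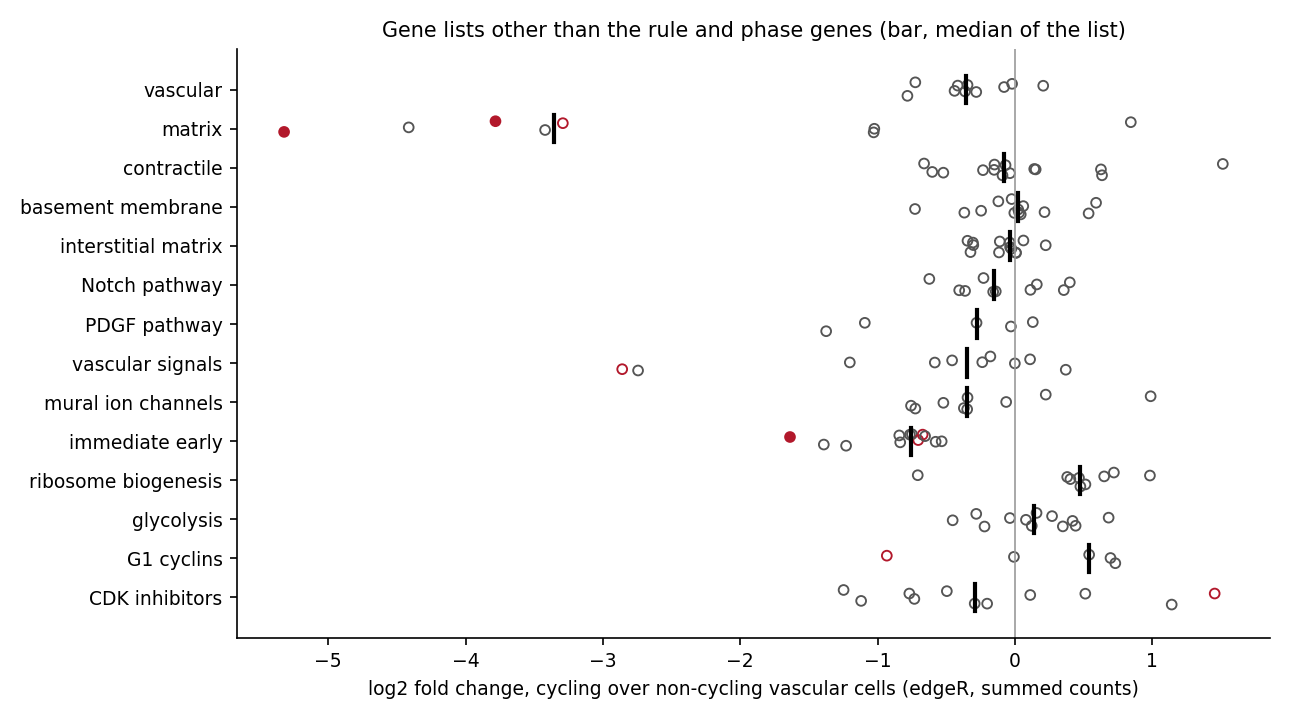
Log2 fold change of each tested gene of 14 lists in cycling over non-cycling vascular cells, from edgeR on summed counts. Filled red points passed an adjusted p of 0.05, red outlines passed it with the tumor as a block, grey outlines passed neither, and the bar is the median of the list. *Lum*, *Dcn* and *Ier3* are the filled points, and the medians of the vascular, contractile, basement membrane and interstitial matrix lists lie between -0.35 and 0.02.

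Of 8 matrix markers tested 7 lay below 0, with a median of -3.36, and 2 were called lower, or 3 with the block or with the spike-in totals. These 2, *Dcn* and *Lum*, are small leucine-rich proteoglycans that coat collagen. *Dcn* was at 3.57 and 8.86 CPM in the cycling sums of plates 1 and 2 and at 110 and 61.4 CPM in the non-cycling sums, a log2 fold change of -3.78 ± 0.57 (adjusted p = 0.0433). *Lum* was at 2.14 and 0.850 CPM against 42.7 and 77.5 CPM, a change of -5.32 ± 0.63 (adjusted p = 0.0209). The share of cells with any read was nearly the same, at 52.9% and 35.3% of cycling against 49.6% and 38.5% of non-cycling cells for *Dcn*, and 41.2% and 20.6% against 39.9% and 24.9% for *Lum*. In the non-cycling sums a single cell held 25.7% and 46.7% of the *Dcn* reads and 28.5% and 47.3% of the *Lum* reads. At least 5 matrix markers were found in 3 of the 68 cycling and 37 of the 451 non-cycling vascular cells, and the part of these cells in the difference was not tested. *Lum* passed under 10 of 11 alternatives and *Dcn* under 6 of 11. *Fbln1* ran the other way without passing the test (0.84 ± 0.51, adjusted p = 0.516).

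Of the 22 lower genes, 13 were also called after thinning, 11 with the spike-in totals and 7 with at least 5 rule genes. *Slfn5*, a member of the interferon-inducible Schlafen family, had a read in 20.6% and 38.2% of cycling cells and in 58.4% and 66.7% of non-cycling cells, with a log2 fold change of -2.49 ± 0.34 (adjusted p = 0.033). *Mylip*, which encodes a ubiquitin ligase of the LDL receptor, fell by 2.11 ± 0.26 (adjusted p = 0.0231), to 19.05 and 21.6 CPM from 84.6 and 90.6 CPM. *Gabrr1*, a GABA receptor subunit gene, had 0 reads in the 68 cycling cells and 2000 reads in the non-cycling cells, where 11.3% and 7.98% of cells had one, and was at least 124-fold lower over both plates when set against a limit of 3 counts. *Fmo5*, a monooxygenase gene, had 2 reads in cycling and 1169 in non-cycling cells. *Cxcl12*, the stromal chemokine that binds CXCR4, fell by 3.52 ± 0.55 (adjusted p = 0.0484), and on plate 2 the share of cells with a read was 14.7% in cycling and 13.6% in non-cycling cells. *Sod3*, an extracellular superoxide dismutase gene, fell by 1.95 ± 0.26 (adjusted p = 0.0273). *Mafk*, a small basic leucine zipper factor gene, fell by 1.77 ± 0.28 and *Chchd10*, a mitochondrial protein gene, by 2.99 ± 0.47, both close to the threshold at adjusted p-values of 0.0492 and 0.0495.

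Immediate early genes, which respond within minutes to growth factors or to tissue dissociation, lay below 0 in all 12 cases, with a median of -0.76. *Ier3* passed the test (-1.64 ± 0.25, adjusted p = 0.0424), at 37.5 and 49.3 CPM in cycling against 145 and 125 CPM in non-cycling cells, and 3 of the 12 were called lower with the tumor as a block, beside 0.732% of all genes. With the spike-in totals as library size the median of this list was -0.10 beside 0.66 over all genes, so the list lay below all genes under both scalings, and none of the 12 was called lower against 0. Of 10 genes for signals of vessels, *Ednrb*, an endothelin receptor gene, passed only with the block (-2.86 ± 0.67, adjusted p = 0.132 without and 0.0183 with it in edgeR). Ribosome biogenesis genes had a median of 0.48 with 0 of 9 passing, and glycolysis genes 0.14 with 0 of 12, and with the spike-in totals 5 of 9 (median 1.13) and 2 of 12 (0.80) were called higher, beside 14.9% of all genes and their median of 0.66.

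The list of D cyclins, which also holds *Cdk4* and *Cdk6*, had no gene past the test among 5. The list of CDK inhibitors, which also holds *Btg2*, had none among 11. With the spike-in totals 3 and 2 were called higher, beside 14.9% of all genes. *Ccnd2* was at -0.93 ± 0.17 and passed with the block (adjusted p = 0.0799 and 0.0243), and *Ccnd1* was at 0.73 ± 0.27 (adjusted p = 0.298). *Cdkn2c*, which encodes the CDK4/6 inhibitor p18, was at 99.8 and 82.2 CPM in cycling and 33.5 and 32.9 CPM in non-cycling cells, a log2 difference of 1.45 ± 0.25 (adjusted p = 0.0606, and 0.0459 with the block). *Btg2*, an antiproliferative gene, was at -1.25 ± 0.32 (adjusted p = 0.153).

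Outside the cycle lists, 86 genes were higher in cycling vascular cells. The 10 largest were *Depdc1a*, *Esco2*, *Aspm*, *Cdca5*, *Neil3*, *Casc5*, *Stil*, *Kif18b*, *Troap* and *Prr11*, most of them known for work at the spindle, the kinetochore or sister chromatids. *Depdc1a* had 419 reads in cycling cells and 0 in the 451 non-cycling vascular cells, at least 751-fold higher over both plates against a limit of 3 counts. *Esco2*, the cohesin acetyltransferase gene of S phase, had 1127 reads against 2, and *Aspm*, a spindle pole gene, 3297 against 12. Since the cells were chosen on cycle genes, these too are given as a description.

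The state of each cell within the cycle was read from a pair of lists that left out the rule genes, with 42 measured S genes and 49 G2/M genes, as the share of each list at an RPKM of at least 1. Cycling cells had a median of 47.6% of the S list on plate 1 and 42.9% on plate 2, against 14.3% and 11.9% of the other cells. For the G2/M list the medians were 63.3% and 46.9% against 12.2% and 14.3%. More G2/M than S genes by share were found in 23 of 37 cells on plate 1 (62.2%, 44.8 to 77.5%) and in 23 of 45 on plate 2 (51.1%, 35.8 to 66.3%), a mean of 56.6% ± 7.81 (SD, n = 2). The same lean, at far lower shares of both lists, was found in 47.3% and 53.2% of the non-cycling cells, so the lean by itself did not set the cycling cells apart. Among the cycling cells with at least 5 rule genes this share was 70.6%. All 8 rule genes lay higher in G2/M-leaning than in S-leaning cycling cells (median log2 difference 1.81, none passing the test). A stricter rule therefore favours G2/M-leaning cells, and the rise is not an independent result. The cyclone classifier placed 27 cycling cells in G2/M, 8 in S and 47 in G1, and 633 of the 635 other cells in G1.

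The 2 lists together gave a finer picture, with each list called raised above the 95th percentile of the non-cycling cells, 26.2% of the S list and 22.4% of the G2/M list. These limits were set after the values were seen. Both lists were raised in 45 cycling cells (22 and 23 on the plates), the G2/M list alone in 21 (9 and 12), the S list alone in 3, all on plate 2, and neither in 13 (6 and 7). Of the 635 other cells 592 raised neither list. The cells with both lists raised had a median of 8 rule genes, those with the G2/M list alone 6, and those with neither 3.

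**Figure D4:**
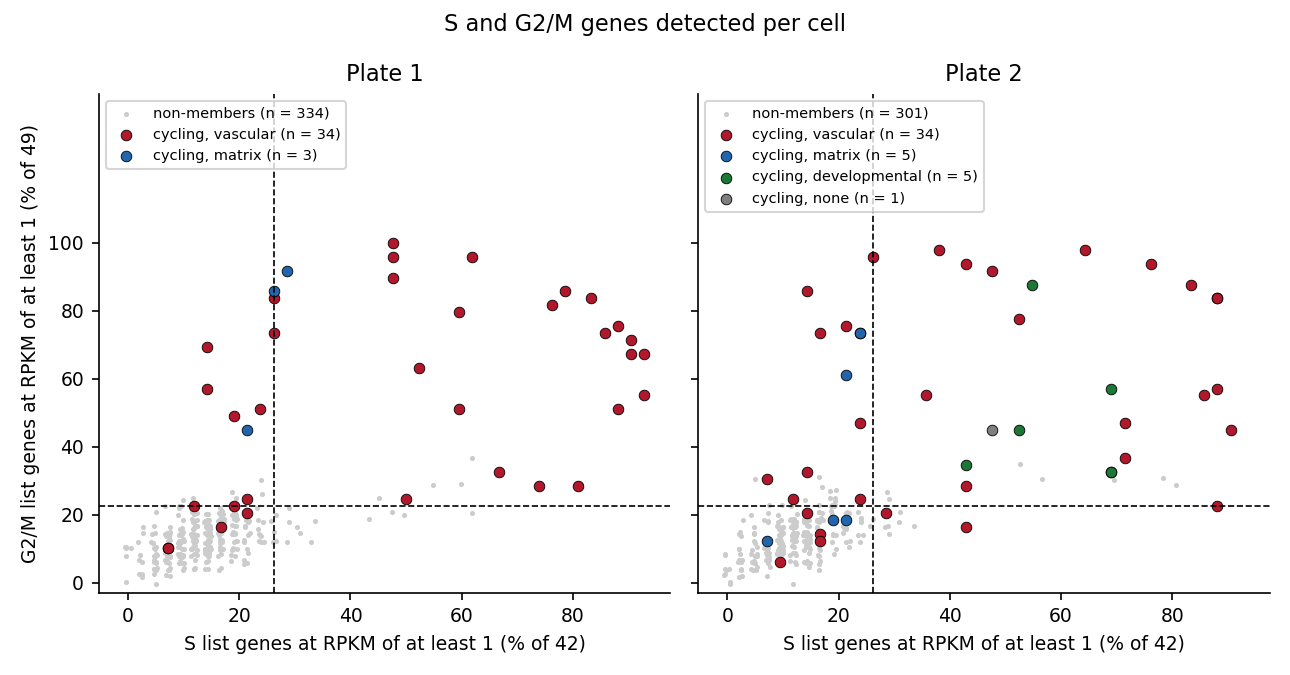
Share of 42 S genes (x axis, %) and of 49 G2/M genes (y axis, %) at an RPKM of at least 1 in each cell of plate 1 and plate 2. Coloured points are cycling cells by programme, small grey points (moved by up to 0.6 percentage points for display) the other cells, and dashed lines the 95th percentiles of the latter, 26.2% and 22.4%. Vascular cells spread from high S shares at the right to G2/M alone at the upper left, and the matrix cells keep to the left.

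Cycle genes in neither list nor rule were counted in the same states. All 22 genes of the licensing, DNA synthesis and G1/S lists were less frequent in cells with the G2/M list alone than in cells with both lists raised, with medians over the genes of 14.3% and 66.7% of cells. The S list separates these states, so this difference is a description. Cells with both lists raised also had more genes detected after thinning (median 4961 against 4173.5), and the part of that in the shares was not tested. *Mcm3* and *Mcm7*, subunits of the replicative helicase, reached an RPKM of 1 in 82.2% and 80.0% of the cells with both lists raised, in 33.3% each of those with the G2/M list alone and in 0% and 15.4% of those with neither. *Ccne1*, the cyclin of the G1/S transition, was found in 55.6% of the cells with both lists raised and in none of the 21 cells with the G2/M list alone. *Lig1*, the replicative DNA ligase gene, was found in 82.2% and 9.52%. Of 25 genes of the mitotic lists, 19 were also less frequent with the G2/M list alone, by a median of 13.3 percentage points over the 25 (the medians were 52.4% and 62.2% of cells), and 6 were more frequent, namely *Foxm1*, *Kif20a*, *Knstrn*, *Plk1*, *Pttg1* and *Racgap1*. *Sgol1*, which protects cohesin at centromeres, was found in 64.4% of the cells with both lists and 19.05% of those with the G2/M list alone, and *Plk4*, the kinase of centriole duplication, in 73.3% and 33.3%. *Kif20a*, a kinesin of cytokinesis, was found in 51.1% of the cells with both lists and 81.0% of those with the G2/M list alone, and *Racgap1*, of the central spindle, in 75.6% and 90.5%. *Plk1*, the polo-like kinase of mitosis, stood at 55.6% and 57.1% and was absent from the 13 cells with neither list raised.

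The promoters of some cycle genes are shown to let the rule genes and the phase lists be read as sequence. The lists compared were set by the choice of cells and markers, and the shares are a description. The words TTTGAA (the cell-cycle homology region), CCAAT (bound by NF-Y) and TTTGGCGC (an E2F site) were searched on both strands of the 250 bases before the start in the RefSeq promoter table of GRCm38.p6, which is mm10. TTTGAA was found in 4 of 6 rule genes in the table, 16 of 41 G2/M genes (39.0%) and 6 of 30 S genes, against 18.3% of 27025 genes. It was found in 0 of 7 vascular markers, 2 of 6 matrix markers and 1 of 11 contractile genes. CCAAT was found in 5 of 6 rule genes, 75.6% of G2/M and 70.0% of S genes, against 37.5% of all genes. It was found in 2 of 7 vascular markers, 0 of 6 matrix markers and 7 of 11 contractile genes (63.6%), so it was not confined to cycle genes. TTTGGCGC was found in 5 of 30 S genes and 1 of 41 G2/M genes, against 0.485% of all genes. *Ccna2* and *Pbk* were not in the table. A match is only a match of letters. The stretches up to the base before the start of *Cdk1* (chr10:69352913-69353022, minus strand), *Ccnb2* (chr9:70421555-70421664, minus strand) and, as an S gene, *Mcm5* (chr8:75109349-75109508, plus strand) read 5′ to 3′ with the matches on either strand in capitals.
Cdk1: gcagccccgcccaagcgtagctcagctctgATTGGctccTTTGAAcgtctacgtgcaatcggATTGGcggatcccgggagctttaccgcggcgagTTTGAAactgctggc
Ccnb2: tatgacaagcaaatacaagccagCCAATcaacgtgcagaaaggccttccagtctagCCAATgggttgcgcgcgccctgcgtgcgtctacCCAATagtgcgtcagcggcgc
Mcm5: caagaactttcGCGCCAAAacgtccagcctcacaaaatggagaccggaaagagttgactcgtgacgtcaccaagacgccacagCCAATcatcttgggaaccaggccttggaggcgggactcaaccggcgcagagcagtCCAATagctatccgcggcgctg

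The states were also counted within the programmes. Of the 68 cycling vascular cells, 38 raised both lists and 17 the G2/M list alone. Of the 8 cycling matrix cells, 1 raised both lists, 4 the G2/M list alone and 3 neither, and their S shares ran from 7.14% to 28.6%. With 8 cells the intervals of these shares overlapped those of the vascular cells, at 0.316 to 52.7% against 43.3 to 67.9% for both lists raised. Across all kept cells, whether cycling by the rule or not, at least 40% of the S list was found in 29 of 272 vascular cells on plate 1 (10.7%, 7.26 to 15.0%) and 22 of 247 on plate 2 (8.91%, 5.67 to 13.2%). The same was true of 0 of 80 matrix cells on plate 1, where the exact interval reaches 4.51% and a limit of 3 counts 3.75%, and of 0 of 74 on plate 2, where they reach 4.86% and 4.05%. After thinning to 50000 reads the counts were 27 of 261 and 21 of 231 vascular cells and 0 of 78 and 0 of 72 matrix cells. The intervals of vascular and matrix cells did not overlap on either plate, but they cover counting error over cells only. The limit of 40% was chosen after the values were seen and lies above the highest S share of a matrix cell, 31.0%. With 2 plates an exact two-sided permutation test cannot give a p under 0.333.

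Of the 51 vascular cells with at least 40% of the S list, 13 were not cycling by the rule. They had 1 (5 cells) or 2 (8 cells) rule genes, 42.9 to 81.0% of the S list and 18.4 to 36.7% of the G2/M list. The 82 cells therefore leave out cells with a high share of the S list that fell short of 3 rule genes.

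The 8 cycling matrix cells were assigned by 7 to 10 matrix markers, and 2 of them also had at least 5 vascular markers. *Dcn* ranged from 676 to 4198 RPKM in them and *Pdgfra*, the PDGF receptor of fibroblasts, from 76.1 to 188 RPKM, and *Rgs5* did not exceed 11.2 RPKM. On plate 1 the 3 cells had 44.9%, 85.7% and 91.8% of the G2/M list, and *Plk1* was at 0, 102 and 217 RPKM. On plate 2, 2 cells had 61.2% and 73.5% of the G2/M list with 6 and 5 rule genes, and the other 3 had 12.2%, 18.4% and 18.4% with 3 rule genes each. The last 3 raised neither list, and 2 of them had *Epcam* at 122 and 44.7 RPKM. The mean log2(RPKM + 1) of *Pdgfra* was 7.14 in cycling and 5.84 in non-cycling matrix cells and that of *Col1a1*, a fibrillar collagen gene, 11.52 ± 0.34 and 11.11 ± 0.44 (SD, n = 2 plates).

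The 5 cycling developmental cells were all on plate 2 and all raised both lists, with 42.9 to 69.0% of the S list. *Sox10*, a neural crest and glandular transcription factor gene, ranged from 99.2 to 198 RPKM and *Trf*, transferrin, from 1917 to 9539 RPKM. They differed among themselves in epithelial genes. In 3 cells *Epcam*, *Krt8* and *Krt18* were at 0, 2 or 3 of the 10 epithelial genes had a read (*Cdh1* and *Cldn3* in each, summed 97.2 to 357 CPM), and the reads per spike-in read were 22.6 to 30.7. In the other 2, *Epcam* was at 1654 and 1337 RPKM, *Krt18* at 1414 and 1061 RPKM, 7 and 8 epithelial genes had a read (8455 and 6589 CPM), and the reads per spike-in read were 359 and 232, while no other kept well exceeded 32.2. The label of CAF-like cells is not borne out by these markers in those 2 cells, although the sort was for EpCAM-negative cells. Without them 80 cycling cells remained, of which 68 (85.0%) were vascular, and 3 of 27 developmental cells were cycling (11.1%). The 8 Schwann cell genes summed to 403 to 811 CPM in the 5 cells, beside a median of 621 CPM in non-cycling developmental cells, and include *Sox10*, which is also among the markers that assigned the programme. *Pdgfra* was at 0 in all 5. *Pdgfrb* was read in all 5 cells but at a median of 6.22 RPKM, against 367 RPKM in cycling vascular cells.

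Cycling vascular cells held more RNA relative to the spike-ins added to each well. The median of endogenous reads per ERCC read was 10.2 in cycling against 5.76 in non-cycling vascular cells on plate 1, and 10.6 against 6.76 on plate 2, ratios of 1.78 and 1.57 (mean 1.67 ± 0.148, SD, n = 2). The cycling cells were also sequenced more deeply, by 1.28 and 1.12 times. After thinning to 50000 reads the median number of genes detected was 4592 against 3482 on plate 1 and 4479 against 3598 on plate 2. The direction was the same on both plates, and with n = 2 an exact permutation test cannot go below p = 0.333.

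The values were also given by state. In vascular cells with both lists raised the median was 11.4 reads per ERCC read on plate 1 and 13.6 on plate 2. In those with the G2/M list alone it was 7.45 and 6.41, beside 5.51 and 6.55 in the non-cycling vascular cells that raised neither list, so it was above them on plate 1 and not on plate 2. The cycling vascular cells with neither list raised had 5.44 on plate 1 (6 cells) and 11.8 on plate 2 (4 cells), so the plates differed for this state. The number of genes after thinning was 4942 for both lists and 3990 for the G2/M list alone on plate 1, and 4666 and 4163 on plate 2, against 3458 and 3559 in non-cycling cells that raised neither list. Cycling cells with neither list had 3438.5 on plate 1 and 4760.5 on plate 2, the latter above those with both lists. Median depth was 279630 and 241443 reads in these states on plate 1 and 227356 and 197547 on plate 2, and its part in the difference was not tested. The states rest on genes detected in each cell, and among non-cycling cells the median reads per ERCC read also rose with the rule genes detected, from 6.50 with none to 7.07 with 1 and 8.30 with 2, so how far the state and the RNA content are independent was not tested.

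**Figure D5:**
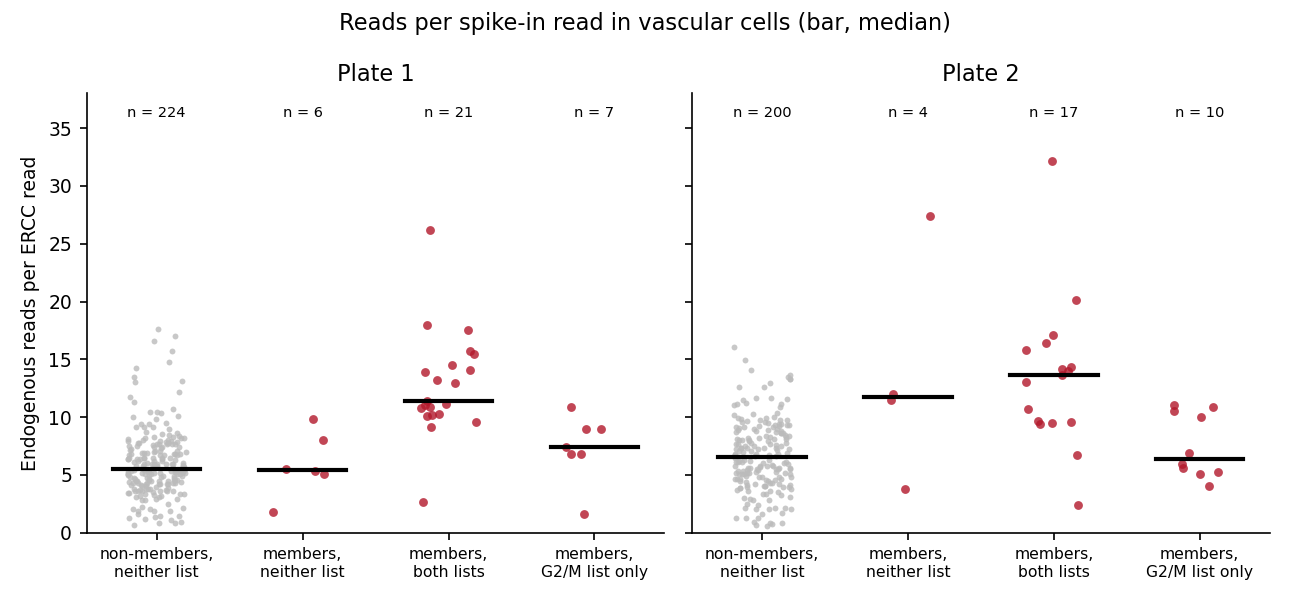
Endogenous reads per ERCC read (y axis) in single vascular cells by cycling status and by the phase lists they raised, for plate 1 and plate 2, with the median as a bar and the number of cells above. Cells with both lists raised have the highest medians, 11.4 and 13.6, and cells with the G2/M list alone have 7.45 and 6.41.

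Last, cells with more G2/M genes and cells with more S genes were compared with each other, to ask whether any programme outside the cycle followed the phase. Sums of 23 and 23 G2/M-leaning cells were set against sums of 14 and 22 S-leaning cells. Of 11684 genes, edgeR called none higher (0%) and none lower (0%) at an adjusted p of 0.05, 699 genes had an unadjusted p under 0.05, and DESeq2 called 116 higher and 52 lower. In simulated data of the same size, with an assumed dispersion of 0.1, edgeR found 78 of 100 genes changed 4-fold and 8 of 100 changed 2-fold. It also called 4 unchanged genes. The phase genes lay as the split made them, with medians of 2.24 for the G2/M list and -1.32 for the S list. None of the 49 G2/M genes was called even so, so the simulated rates do not carry over to these libraries, and the empty result does not show that changes are absent. The vascular list had a median of -0.08, the contractile list 0.49, the basement membrane list -0.08 and the interstitial matrix list 0.35, with none of their genes passing in edgeR. Medians were 0.97 for the PDGF list (2.12 and 0.18 on plates 1 and 2), 0.58 for CDK inhibitors and 0.45 for immediate early genes. They were -0.73 for D cyclins, -0.53 for ribosome biogenesis and -0.49 for glycolysis, where 11 of 12 genes lay below 0. None of these genes passed in edgeR either. *Col12a1*, a collagen gene, was at 1.51 ± 0.21 (adjusted p = 0.281 in edgeR), with 42.6% and 79.6% of its reads in the G2/M-leaning sums from a single cell. It was called by DESeq2 (adjusted p = 4.4e-12) and stood at -0.19 in vascular cells alone, an alternative chosen after seeing the data. *Dusp1*, a phosphatase of the immediate early list, was at 1.29 ± 0.23 (adjusted p = 0.48 in edgeR, 8.3e-06 in DESeq2). The matrix median was 7.32 on plate 1, where the 3 matrix cells were all G2/M-leaning, and -0.09 on plate 2, and the developmental median was -3.52 with all 5 cells on plate 2 and 4 of them S-leaning, so both follow the few cells of those programmes.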

How the data were processed

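Single sorted cells of 2 tumors, 384 wells each, were analysed, and groups and plates were taken from the labels. For each well the authors deposited raw counts, whole reads assigned to RefSeq gene models after alignment to mm10 with STAR. A second deposited table gives RPKM, for which the authors used rpkmforgenes with spike-in reads kept in the denominator. The tables cover 24490 genes and 92 ERCC controls, with 0 columns unused and 0 duplicated. The members and all gene lists were chosen with earlier results of these data known, so no list is independent evidence of its direction.

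A gene was counted as expressed at an RPKM of at least 1. Cells were not taken as replicates. Counts were summed per plate and class into 4 libraries, and genes whose mean RPKM reached 1 went into edgeR 4.0.16 (quasi-likelihood test, TMM scaling, no covariate, Benjamini-Hochberg adjusted p of 0.05), with log2 fold changes and standard errors. Both libraries of a plate come from the same animal, which pairs them, and their deviations from the group means correlated by 0.154 (cycling against non-cycling) and 0.121 (G2/M- against S-leaning). The plate was therefore added as a replicate block in an alternative fit. Other alternatives were DESeq2 1.42.0, its size factors in edgeR, ERCC totals as library size, thinning of each cell to 50000 reads, other limits of the rule, other reference cells, other gene filters and, for the phase, cyclone from scran 1.30.0, which matched 642 of its 667 genes. On simulated counts with an assumed dispersion of 0.05, the edgeR step called 98 of 100 genes changed 4-fold and 20 of 100 changed 2-fold. It also called 2 unchanged genes. These counts are for cycling against non-cycling cells. Genes named outside the lists are the 10 called genes of largest change in each direction that are in no cycle list and moved alike on both plates. Within lists they are the called genes or, where more than 5 or none were called, the 3 of largest change, and all genes of the rule and marker lists qualify. Other genes are named with levels only, chosen for their known roles after their values were seen. Doublets were not called, since each well was sorted with 1 cell and a caller for droplets was not applied.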

Additional observations from a re-analysis of the deposited data

Results flagged for a closer look

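Values of single cells were set against the rest of their group in the groups of 4 to 10 cells, with 15 groups and measures looked at, of which chance flags about 1 in 20. Among the 5 cycling matrix cells of plate 2, the lowest share of the S list (7.14%, median 21.4%) lay far from the other cells, and it did so too among the 8 cycling matrix cells of both plates. The same group of 8 cells held 1 cell with 2.89 endogenous reads per ERCC read, beside a median of 17.01. Both values belong to the same cell of plate 2, which had 3 rule genes and the fewest reads of the 8.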

How the results depend on the processing

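The vascular share of cycling cells moved by less than the spread between plates under every alternative tried, from 81.7% (any read in place of an RPKM of 1) to 85.4% (thinned cells), and was 75.6% and 91.9% without replicate 1 and without replicate 2. Other results moved. With at least 5 rule genes the cycling cells were 51 and the G2/M-leaning share was 70.6%. Over all 82 cells that share was 33.1% by cyclone, and 51.1% to 62.2% on single plates. With any read the matrix share was 12.1%, and 8.11% to 11.1% on single plates. As thinned genes detected, the ratio of cycling to non-cycling vascular cells was 1.28 in place of 1.67 for reads per ERCC read (1.57 to 1.78 on single plates). For cycling against non-cycling vascular cells, the higher and lower genes were 573 and 348 with DESeq2, 311 and 75 for any gene with a read, 1671 and 47 with ERCC totals as library size, 297 and 319 against all non-members, 232 and 37 after thinning, and 0 and 0 at an adjusted p of 0.001. The replicate block, for which the plates pair the libraries, gave 273 higher and 82 lower genes, and 0 and 0 for G2/M- against S-leaning cells. The latter comparison gave 116 higher and 52 lower genes with DESeq2, 60 and 5 for any gene with a read, and 8 higher genes with at least 5 rule genes, an alternative added after seeing the data. *Fbln1* turned to -3.23 against all non-members, which include matrix cells, and *Col12a1*, not called, to -0.19 between the phases in vascular cells alone. For the rest the cause was not tested. Of the 54 named genes called in cycling cells, values under alternatives kept the side of the threshold 605 times, fell short of it 41 times with the same sign, most often with at least 5 rule genes (12), and never changed sign, and without a plate 53 fold changes, given with no test, moved by more than their standard error. Tests without a plate were not run, since 1 library per arm leaves no residual spread.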

Other observations

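Cycling cells lay in most rows and columns of the plates: the 37 cells of plate 1 lay in 14 of 16 rows and 18 of 24 columns, and the 45 cells of plate 2 in 15 rows and 21 columns. The cycling cell with no programme (plate 2) had 7 rule genes, 3 vascular, 3 matrix and 4 developmental markers, 47.6% of the S list and 44.9% of the G2/M list. On plate 2, a cycling vascular cell with 3 rule genes carried 10 vascular and 9 developmental markers, with *Rgs5* at 5373 RPKM beside *Trf* at 1463 RPKM, *Epcam* at 414 RPKM and *Krt18* at 431 RPKM. Another had 10 vascular and 6 developmental markers with *Epcam* at 85.0 RPKM and 6 rule genes. Of the 82 cycling cells, 6 (7.32%) had any *Epcam* read, beside 50 of 635 non-cycling cells (7.87%). An *Epcam* RPKM of 1000 was reached in 2 cycling cells and in 1 non-cycling cell, a developmental one. *Pecam1* was read in 2 of 8 cycling matrix cells and in none of the 635 non-cycling cells, where the exact interval reaches 0.579% and a limit of 3 counts 0.472%.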
